A study of Mus musculus with 10 samples.

Results

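Expression of 9 genes of cholangiocytes and of the ductular reaction was examined in mouse livers with steatohepatitis. The genes Sox9, Krt7, Krt19, Epcam, Cldn4, Cldn7, Cd24a, Prom1 and Ezr were taken by symbol from a table of 17274 genes, and all 9 were found. The study compared 5 livers given an AAV, a viral vector that carries genes into cells, encoding miR-181d-5p with 5 livers given a control AAV. All mice were WT, received the virus into a vein and were on CDAHFD, a diet without choline, with defined amino acids and much fat, which brings on nonalcoholic steatohepatitis (NASH). The promoter and serotype of the vector, its dose, the time on diet and the age of the mice are not given in the sources used here. No label ties a sample to an animal of its own, and the p-values therefore reflect only how these 10 samples vary, which may in part be technical. Whole liver was sequenced, so fewer cells of a type and less RNA per cell cannot be told apart. How much of the microRNA each liver held was not analysed here.

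Cholangiocytes are the epithelial cells that line the bile ducts. In chronic liver injury, small duct-like cells expand around the portal tracts, which is called the ductular reaction, and hepatocytes can also switch on some ductal genes. The reaction often accompanies scarring in steatohepatitis. The transcription factor Sox9 marks ductal and progenitor-like cells, the keratins Krt7 and Krt19 form their cytoskeleton, and Epcam, Cldn4 and Cldn7 sit at their cell contacts. Cd24a and Prom1 (CD133) are surface proteins used to isolate such cells, and Ezr links the apical membrane to actin.

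A microRNA pairs with messenger RNAs mainly through its seed, bases 2 to 8. The mature sequences of the miR-181 family are shown to place the delivered microRNA among its relatives, with the seed in capitals (RefSeq, GRCm38.p6).
miR-181d-5p: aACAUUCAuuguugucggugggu
miR-181a-5p: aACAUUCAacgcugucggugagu
miR-181b-5p: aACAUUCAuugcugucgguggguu
miR-181c-5p: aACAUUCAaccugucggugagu
All 4 carry the same seed. The longest annotated 3' untranslated region (UTR) of each gene was searched on its own strand for the reverse complement of the seed, TGAATGT, and for the 7 letters GAATGTA, in which an A follows bases 2 to 7 of the match. A match to either was found in 1 of the 9 genes, against 2700 of 11764 tested genes with a UTR (23.0%). The match lies in Cd24a on chromosome 10, 43583028 to 43583034, plus strand of mm10, in exon 2 of 2. It starts at base 263 of a UTR of 1500 bases, and is shown with 10 bases on either side, the match in capitals.
Cd24a: gtgatttcctTGAATGTggcttaggaa
The UTRs searched ran from 103 bases in Krt19 to 2648 bases in Krt7, against a median of 1113 bases over the tested genes. With all annotated UTRs of each gene searched, the count was still 1 of 9, against 24.2% of genes. A match is a description of letters, and binding was not measured.

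All 9 genes had lower mean values with miR-181d-5p than with the control virus, and none passed the test after adjustment. Mean FPKM (reads per length and depth) with miR-181d-5p was between 54.1% of the control mean, in Sox9, and 81.5%, in Krt19. The log2 changes, on the log2(FPKM + 1) scale, ran from -0.67 to -0.28 with a median of -0.49, against a median of -0.02 over all 12053 genes tested. By limma with Benjamini-Hochberg adjustment, 0 of the 9 passed an adjusted p of 0.05, and their adjusted p ran from 0.221 to 0.54. The share of all tested genes that passed was 0.0%, and the lowest adjusted p of any gene was 0.142. At an unadjusted p under 0.05, 8 of the 9 were lower, all but Krt19, against 9.63% of all tested genes. By the exact permutation test over livers, 2 of the 9, Sox9 and Ezr, had an unadjusted p under 0.05. Of all 12053 tested genes, 1574 did so in either direction. The other 7 of the 9 had an exact p of 0.05556 to 0.3016. A log2 change below 0 was seen in 54.5% of tested genes. In 0 of the 9 did all miR-181d-5p livers lie below all control livers, against 1.45% of tested genes. The 9 genes were chosen with results of these livers known, and they vary together, so the counts are not 9 independent observations. With the exact permutation p adjusted in the same way, 0 of all genes passed, and the lowest adjusted p of any gene was 0.315. This test allows no p below 0.007937, so none could pass unless a very large number of genes reached that p. The count of 0 therefore says little.

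**Figure D1:**
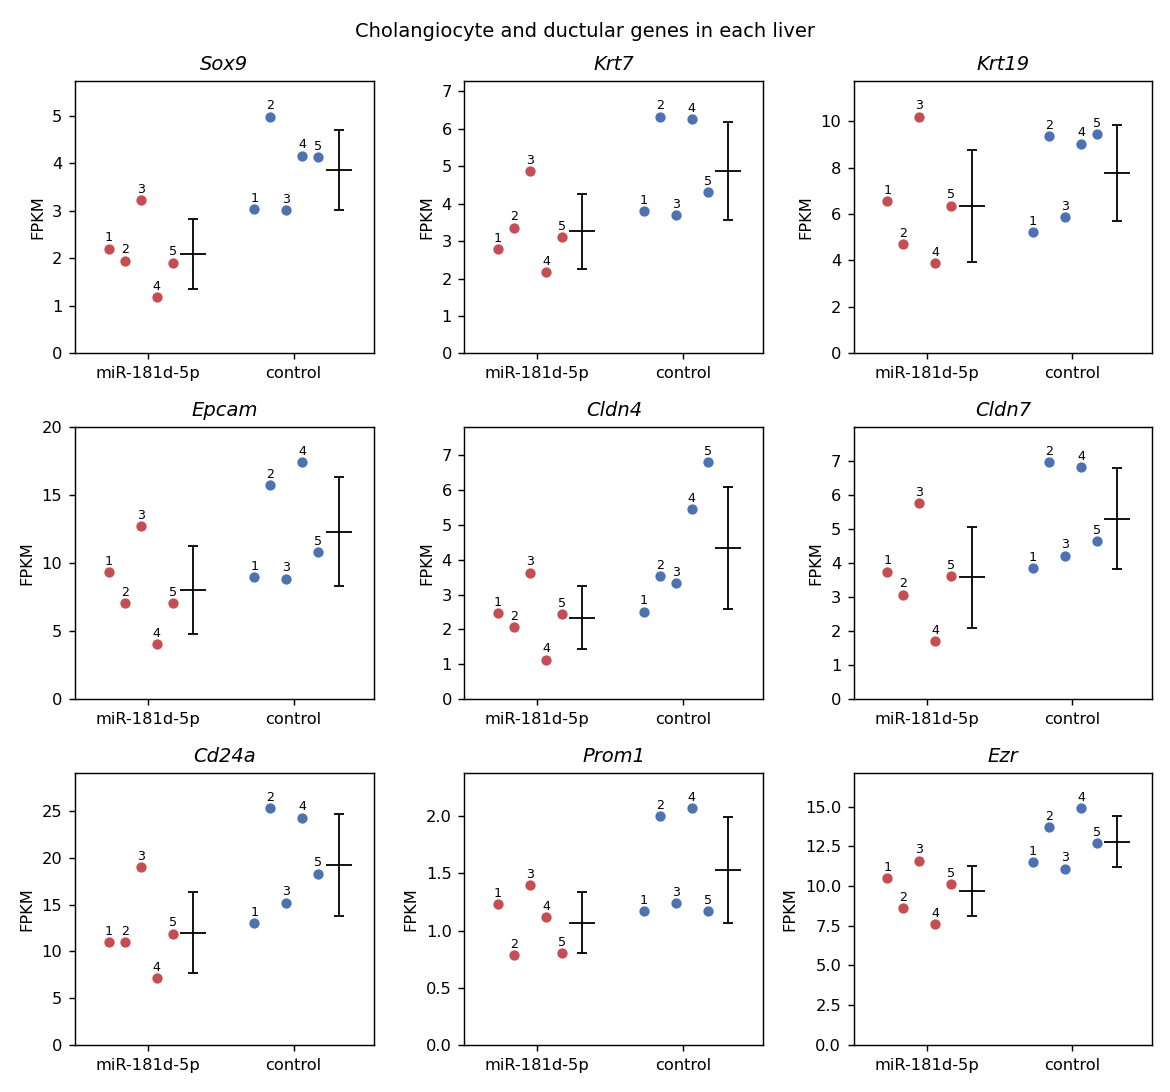
FPKM of each of the 9 genes in each liver, with 1 panel per gene, miR-181d-5p livers on the left and control livers on the right; points are livers and the bars give the mean and SD (n = 5 each). The groups overlap in every panel, and miR-181d-5p liver 4 is the lowest of the 10 in 8 of 9 panels.

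**Figure D2:**
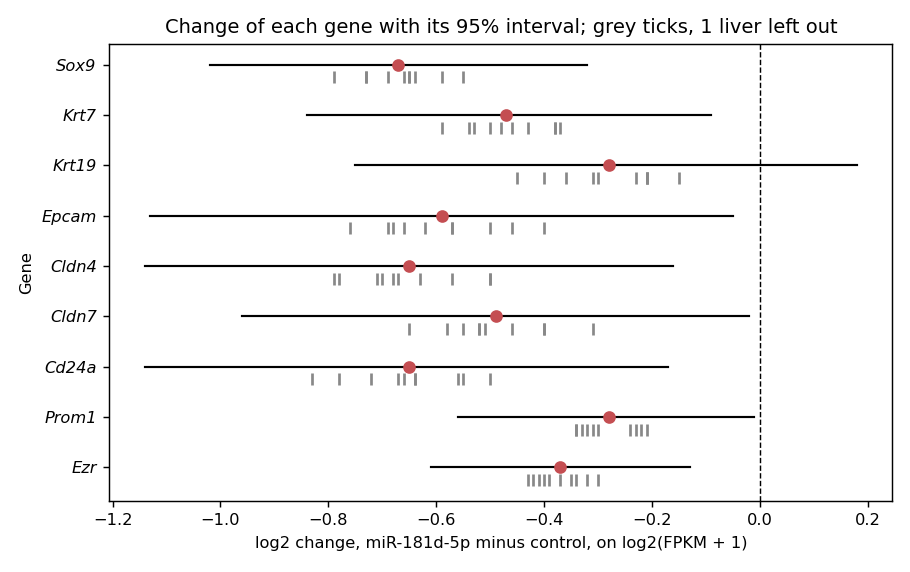
The log2 change of each gene, miR-181d-5p minus control on the log2(FPKM + 1) scale, with its 95% confidence interval; grey ticks give the change with each liver left out in turn. All 9 points lie below 0, between -0.67 for Sox9 and -0.28 for Krt19 and Prom1, and the interval of Krt19 reaches above 0.

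The library totals were 18985912 to 20657019 reads, as recovered from the FPKM values. The median tested gene drew 497 reads a liver, and the 9 genes had between 39 reads, for Cldn4 in miR-181d-5p liver 4, and 1090 reads, for Cd24a in control liver 4. Among the 9 genes, Cd24a was the highest in both groups and Prom1 the lowest by FPKM, which is per length. Epcam and Ezr were next to each other in the control livers and differed there by less than their SD.

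Sox9 (chromosome 11, 112782224 to 112787760, mm10) is a transcription factor of biliary development and of ductal progenitor cells. Its FPKM was 2.20, 1.95, 3.23, 1.18 and 1.91 in miR-181d-5p livers 1 to 5, against 3.04, 4.98, 3.01, 4.16 and 4.13 in control livers 1 to 5. In 4 miR-181d-5p livers it lay below the lowest control liver, and miR-181d-5p liver 3 lay within the control range. The mean was 2.09 ± 0.74 FPKM with miR-181d-5p and 3.86 ± 0.839 FPKM with the control virus (SD, n = 5 each). The log2 change was -0.67 (SE 0.16, 95% confidence interval -1.02 to -0.32), with an adjusted p of 0.221 by limma and an unadjusted exact permutation p of 0.02381. These values rest on 849 reads in the miR-181d-5p livers and 1569 in the control livers. Of the 9, Sox9 had the smallest unadjusted p and was the lowest in proportion to its control mean.

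Of the 11 other Sox family genes listed, 7 were tested, of which 4 were lower, 3 were higher and 0 passed after adjustment. At an unadjusted p under 0.05, 0 were lower and 1 was higher. Sox13 stood at 2.51 ± 0.393 FPKM with miR-181d-5p and 1.96 ± 0.27 FPKM with the control virus. Sox4, another factor of biliary cells, stood at 3.42 ± 0.886 FPKM with miR-181d-5p and 4.69 ± 1.61 FPKM with the control virus, with a log2 change of -0.34 (adjusted p = 0.42, limma). The median log2 change of the family was 0.00. Beside this list and those below, 54.5% of all 12053 tested genes were lower. At an unadjusted p under 0.05, 9.63% of all tested genes were lower and 607 genes were higher.

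The keratins of the ducts were Krt7 (chromosome 15, 101411043 to 101430313) and Krt19 (chromosome 11, 100140810 to 100148665), which mark cholangiocytes in histology. Krt7 had 2.78, 3.36, 4.88, 2.18 and 3.11 FPKM in miR-181d-5p livers 1 to 5, against 3.81, 6.33, 3.70, 6.26 and 4.31 FPKM in control livers 1 to 5. All miR-181d-5p livers but liver 3 were below the lowest control liver. Its mean was 3.26 ± 1.01 FPKM with miR-181d-5p and 4.88 ± 1.31 FPKM with the control virus, a log2 change of -0.47 (SE 0.17, adjusted p = 0.269, limma). Krt19 had 6.55, 4.72, 10.2, 3.89 and 6.36 FPKM in miR-181d-5p livers 1 to 5, against 5.22, 9.35, 5.86, 9.03 and 9.46 FPKM in control livers 1 to 5. The groups interleaved, and the highest value of all 10 livers was in miR-181d-5p liver 3. The mean of Krt19 was 6.34 ± 2.42 FPKM with miR-181d-5p and 7.78 ± 2.07 FPKM with the control virus. Its log2 change was -0.28, with a 95% confidence interval of -0.75 to 0.18 (adjusted p = 0.54, limma), and stood at -0.45 without miR-181d-5p liver 3 and at -0.15 without miR-181d-5p liver 4.

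The keratins that hepatocytes share with ducts were much more abundant. Krt8 stood at 683 ± 63.2 FPKM with miR-181d-5p and 748 ± 133 FPKM with the control virus (log2 change -0.12, adjusted p = 0.655, limma). Its partner Krt18 stood at 451 ± 51.7 FPKM with miR-181d-5p and 491 ± 99.0 FPKM with the control virus. Of 6 listed keratins tested besides Krt7 and Krt19, with Krt8 and Krt18 among them, 4 were lower and 2 were higher. None of the 6 passed at an unadjusted p under 0.05, and the median log2 change was -0.04, and it ran from -0.13 to 0.04 over the alternatives, 0.01 with quantile normalization.

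At the cell surface, Epcam (chromosome 17, 87635979 to 87651129) is an adhesion protein of ducts and progenitor cells. It had 9.32, 7.07, 12.7, 4.02 and 7.03 FPKM in miR-181d-5p livers 1 to 5, against 8.96, 15.7, 8.85, 17.4 and 10.8 FPKM in control livers 1 to 5. The spread was wide in both groups, and 3 miR-181d-5p livers were below the lowest control liver. The mean was 8.03 ± 3.23 FPKM with miR-181d-5p and 12.3 ± 3.99 FPKM with the control virus, a log2 change of -0.59 (SE 0.25, adjusted p = 0.312, limma). Without miR-181d-5p liver 4 the log2 change of Epcam was -0.40.

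The claudins seal tight junctions, and Cldn4 and Cldn7 are enriched in ducts over hepatocytes. Cldn4 (chromosome 5, 134945119 to 134946934) had 2.46, 2.06, 3.63, 1.13 and 2.44 FPKM in miR-181d-5p livers 1 to 5, against 2.51, 3.52, 3.32, 5.45 and 6.79 FPKM in control livers 1 to 5. Its 4 lowest livers were all miR-181d-5p livers, with liver 1 just under control liver 1. Cldn4 averaged 2.34 ± 0.9 FPKM with miR-181d-5p and 4.32 ± 1.75 FPKM with the control virus, 54.3% of the control mean (log2 change -0.65, SE 0.23, adjusted p = 0.257, limma). Its coefficient of variation among livers was 38.4% with miR-181d-5p and 40.6% with the control virus, the widest of the 9 genes in the control livers. Cldn7 (chromosome 11, 69964779 to 69967885) had 3.74, 3.07, 5.76, 1.70 and 3.60 FPKM in miR-181d-5p livers 1 to 5, against 3.84, 6.95, 4.21, 6.80 and 4.63 FPKM in control livers 1 to 5. Only miR-181d-5p liver 3 lay within the control range. Cldn7 averaged 3.57 ± 1.47 FPKM with miR-181d-5p and 5.29 ± 1.48 FPKM with the control virus (log2 change -0.49, adjusted p = 0.328, limma), and its log2 change without miR-181d-5p liver 4 was -0.31.

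Of 20 other claudins and tight junction genes tested, 8 were lower and 12 were higher. At an unadjusted p under 0.05, 3 were higher and 0 lower, and none passed after adjustment. Over all 12053 genes tested, 607 were higher at that unadjusted p. Claudins that are abundant in hepatocytes had higher means with miR-181d-5p. Cldn3 stood at 111 ± 7.31 FPKM with miR-181d-5p and 98.9 ± 7.4 FPKM with the control virus (log2 change 0.17, adjusted p = 0.324, limma). Cldn1 stood at 24.7 ± 4.78 FPKM with miR-181d-5p and 19.4 ± 4.37 FPKM with the control virus (log2 change 0.34, adjusted p = 0.334, limma), and for Cldn2 the log2 change was 0.17.

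Cd24a (chromosome 10, 43578284 to 43584265) encodes a small surface glycoprotein of ductal and many immune cells. The mouse genome also holds processed copies of this gene, and the sources used here do not say how reads shared with them were counted. It had 11, 11, 19.0, 7.13 and 11.9 FPKM in miR-181d-5p livers 1 to 5, against 13.0, 25.3, 15.2, 24.3 and 18.3 FPKM in control livers 1 to 5. All miR-181d-5p livers but liver 3 were below the lowest control liver. The mean of this gene, which holds the seed match, was 12.0 ± 4.33 FPKM with miR-181d-5p and 19.2 ± 5.45 FPKM with the control virus, a log2 change of -0.65 (SE 0.22, adjusted p = 0.255, limma). On the log2(FPKM + 1) scale this equalled the change of Cldn4, which holds no match. With limma voom on recovered reads the changes were -0.7 for Cd24a and -0.88 for Cldn4. Whether the match plays a part was not tested.

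Prom1 (chromosome 5, 43993620 to 44102032) encodes CD133, a membrane protein of ductal and progenitor cells. It had 1.23, 0.784, 1.40, 1.12 and 0.802 FPKM in miR-181d-5p livers 1 to 5, against 1.17, 2.0, 1.24, 2.07 and 1.17 FPKM in control livers 1 to 5. Control livers 2 and 4 stood apart at the top, miR-181d-5p liver 3 came next, and miR-181d-5p liver 1 lay among the other controls. Its mean was 1.07 ± 0.268 FPKM with miR-181d-5p and 1.53 ± 0.464 FPKM with the control virus (log2 change -0.28, SE 0.13, adjusted p = 0.334, limma). Since Prom1 is low, the pseudocount of 1 moves its value, and on recovered reads with limma voom the log2 change was -0.51. Other low genes moved too, such as Sox9, at -0.67 in the main fit and -0.93 with limma voom.

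Ezr (chromosome 17, 6738041 to 6782784) encodes ezrin, which ties membrane proteins to actin at the apical side of ducts. It had 10.5, 8.61, 11.6, 7.61 and 10.1 FPKM in miR-181d-5p livers 1 to 5, against 11.5, 13.7, 11.1, 14.9 and 12.7 FPKM in control livers 1 to 5. In 4 miR-181d-5p livers the value was below all control livers, and liver 3 was just above the lowest of them. Ezr averaged 9.68 ± 1.57 FPKM with miR-181d-5p and 12.8 ± 1.6 FPKM with the control virus (log2 change -0.37, SE 0.11, adjusted p = 0.24, limma), and its unadjusted exact permutation p was 0.02381. It varied least among the 9, with a coefficient of variation of 16.2% with miR-181d-5p and 12.5% with the control virus.

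Among the 15 relatives and partners of ezrin tested, 13 were lower and 2 were higher, with 3 lower and 1 higher at an unadjusted p under 0.05 and none after adjustment. Moesin (Msn), the ezrin relative of leukocytes and endothelium, stood at 39.9 ± 6.14 FPKM with miR-181d-5p and 51.8 ± 5.05 FPKM with the control virus (log2 change -0.38, adjusted p = 0.235, limma). Radixin (Rdx), the relative that hepatocytes use, stood at 46.6 ± 1.56 FPKM with miR-181d-5p and 44.3 ± 5.51 FPKM with the control virus (log2 change 0.08, adjusted p = 0.651, limma). Cd44, a hyaluronan receptor that ezrin binds, stood at 13.1 ± 1.82 FPKM with miR-181d-5p and 17.7 ± 1.12 FPKM with the control virus, with no overlap of the groups (log2 change -0.42, adjusted p = 0.221, limma).

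Promoters of 6 of the 9 genes were in the RefSeq table (Krt7, Epcam, Cldn4, Cldn7, Prom1 and Ezr), as windows of 250 bases before to 50 after the start. Cldn7 and Prom1 had 2 windows each. A gene was counted if either of its windows held the motif, while the shares over all promoters are per window. They were searched on both strands for short motifs chosen with these sequences in view. The AP-1 motif TGANTCA was found in Cldn4, Prom1 and Ezr, against 7.8% of 32851 promoters. Cldn4 held 2 copies, 240 and 158 bases before the start, and Ezr held 1 copy, 32 bases before. The TEAD motif GGAATG was in a window of Cldn7, against 14.7% of promoters, while the RBPJ motif of the Notch pathway, GTGGGAA, was in 0 of the 6 genes, against 6.4%. The GC box GGGCGG was in all 6 genes, against 35.7% of promoters, but in only 1 of the 2 windows of Cldn7 and of Prom1. The SOX motif ACAATG and the TATA box TATAAA were in 0 of the 6, against 12.6% and 13.6%. No matches overlapped, and a motif without a match means only that its letters are not in the window. The 2 promoters with the copies nearest to and farthest from the start are shown, 5' to 3' on the gene's strand, AP-1 matches in capitals. Cldn4 is at chr5:134946885-134947184 and Ezr at chr17:6782731-6783030, both on the minus strand of GRCm38.p6.
Cldn4: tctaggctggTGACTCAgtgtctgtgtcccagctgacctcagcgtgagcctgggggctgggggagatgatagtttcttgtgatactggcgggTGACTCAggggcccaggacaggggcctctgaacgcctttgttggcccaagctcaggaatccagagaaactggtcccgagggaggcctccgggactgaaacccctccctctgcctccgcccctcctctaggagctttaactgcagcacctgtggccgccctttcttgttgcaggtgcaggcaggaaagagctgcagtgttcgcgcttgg
Ezr: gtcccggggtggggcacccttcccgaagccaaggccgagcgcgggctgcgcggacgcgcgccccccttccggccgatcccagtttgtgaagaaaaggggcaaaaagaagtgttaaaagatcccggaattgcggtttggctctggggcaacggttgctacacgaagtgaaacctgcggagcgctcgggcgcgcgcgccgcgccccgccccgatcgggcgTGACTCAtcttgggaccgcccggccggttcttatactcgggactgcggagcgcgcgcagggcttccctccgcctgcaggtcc

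The livers kept much the same order across the genes. Control livers 2 and 4 were in the top 3 for 8 of the 9 genes each, and miR-181d-5p liver 4 was the lowest for 8 of 9, all but Prom1. The median log2 level of the 9 genes relative to the control mean was -0.38, -0.60, 0.03, -1.14 and -0.49 in miR-181d-5p livers 1 to 5, against -0.34, 0.32, -0.26, 0.33 and -0.03 in control livers 1 to 5. Of the miR-181d-5p livers, only liver 3 was at the control mean, and control liver 1 was about level with miR-181d-5p liver 1.

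**Figure D3:**
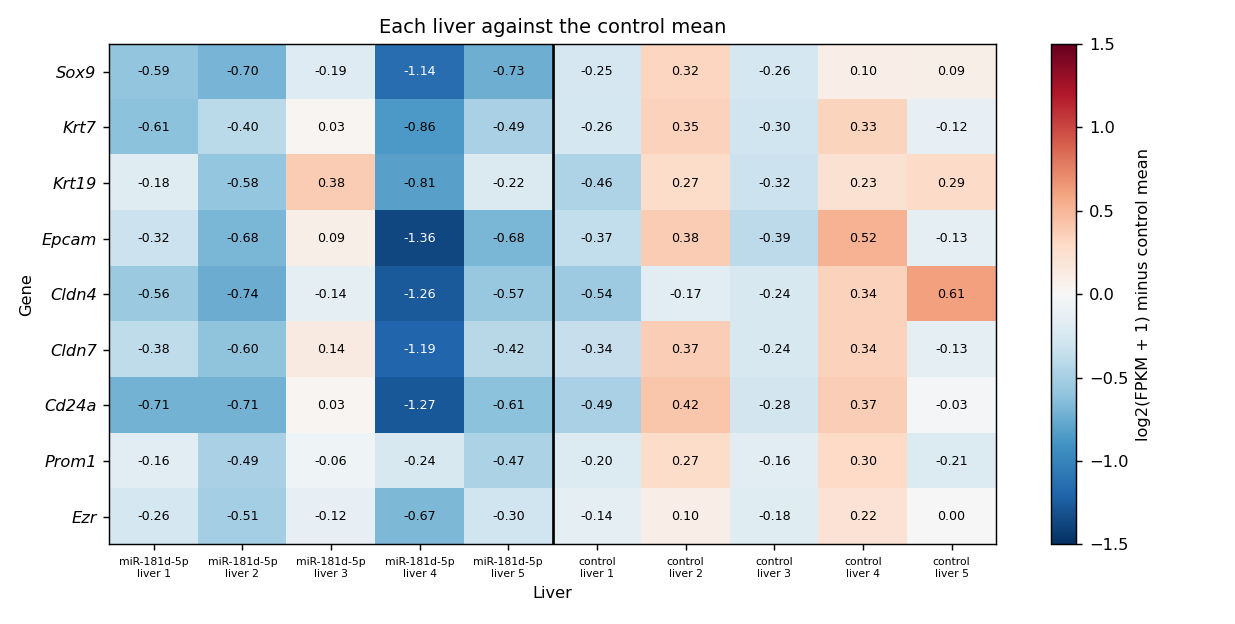
Log2(FPKM + 1) of each gene in each liver minus the mean of the control livers, with genes in rows and livers in columns, miR-181d-5p on the left. The column of miR-181d-5p liver 4 is the darkest on the lower side, with a median of -1.14 over the 9 genes, and that of miR-181d-5p liver 3 is close to 0.

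Across the 10 livers, the 36 pairs of genes had Pearson correlations of 0.51 to 0.98, with a median of 0.87, given as a description of livers that share library and group. As deviations from the group means the range was 0.22 to 0.98, with a median of 0.88. Epcam and Cldn7, Cldn7 and Cd24a, and Krt7 and Cd24a reached 0.98 each. Cldn4 and Prom1 were the lowest pair, at 0.51, and 0.22 within groups. Without the 2 livers farthest from the median of the first gene of each pair, which differ between pairs, correlations ranged from 0.36 to 0.97. Relative to the mean of the other 8, Krt19 stood at 0.48 ± 0.15 with miR-181d-5p and 0.24 ± 0.16 with the control virus on the log2 scale (SD, n = 5 each). Sox9 stood at -0.89 ± 0.05 with miR-181d-5p and -0.69 ± 0.13 with the control virus. The difference between groups on this measure was 0.24 for both Krt19 and Prom1. It was -0.2 for Sox9, -0.18 for both Cldn4 and Cd24a, and between -0.11 and 0.14 for the other genes.

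**Figure D4:**
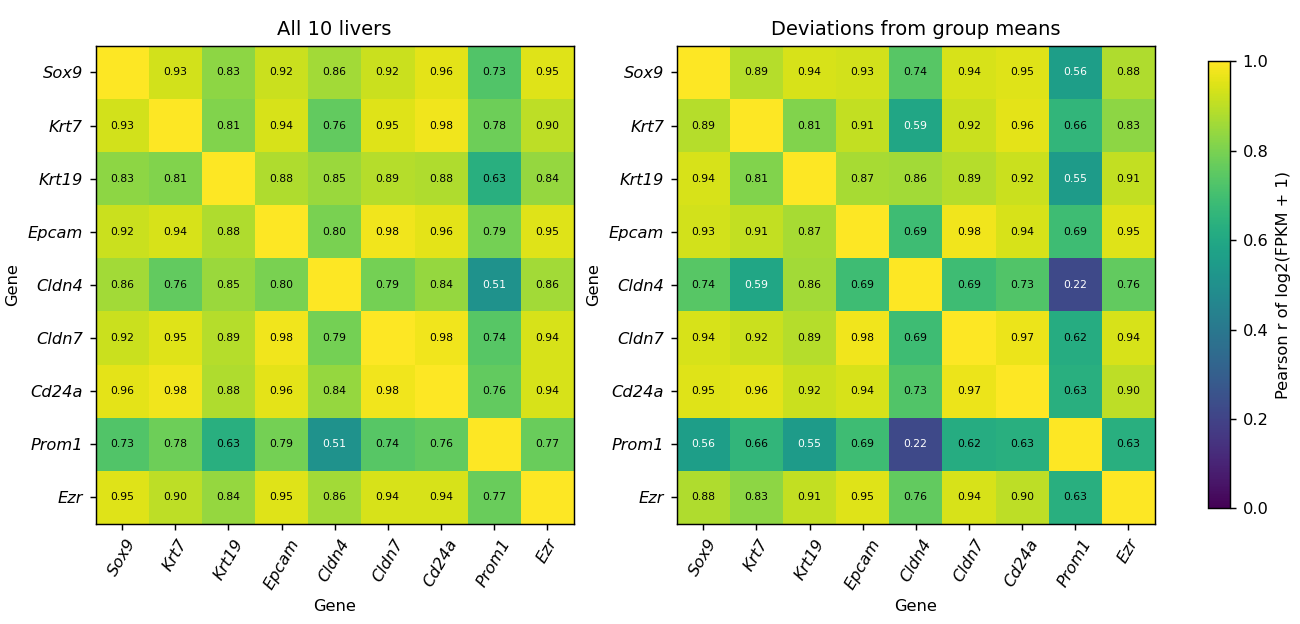
Pearson correlations of the 9 genes with each other, over the 10 livers and as deviations from the group means, with genes on both axes and the colour giving r. Pooled values run from 0.51 to 0.98, and the lowest pair within groups is Cldn4 and Prom1, at 0.22.

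A list of 36 other cholangiocyte and ductular genes, chosen with earlier results of these livers known, had 29 tested members. Of those, 27 were lower and 2 higher, with 11 lower and 0 higher at an unadjusted p under 0.05, none after adjustment, and a median log2 change of -0.31. The other 7 fell below the filter of a mean of 0.5 FPKM over the 10 livers. Dcdc2a, a microtubule-binding protein of the cilia of ducts, stood at 0.701 ± 0.235 FPKM with miR-181d-5p and 1.40 ± 0.524 FPKM with the control virus (log2 change -0.48, adjusted p = 0.237, limma). Anxa13, an epithelial annexin, stood at 2.43 ± 1.2 FPKM with miR-181d-5p and 4.17 ± 0.857 FPKM with the control virus (log2 change -0.65, adjusted p = 0.25, limma). Spp1 (osteopontin), made by ducts and by macrophages, stood at 204 ± 83.7 FPKM with miR-181d-5p and 329 ± 86.3 FPKM with the control virus (log2 change -0.75, adjusted p = 0.257, limma). Cftr, the chloride channel of ducts, was below the filter and not tested, and is named outside the rule for named genes. It stood at 0.333 ± 0.114 FPKM with miR-181d-5p and 0.641 ± 0.253 FPKM with the control virus.

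Notch signalling drives biliary fate, with Jag1 as a ligand and Hes1 as a target. Of 21 Notch pathway genes tested, 17 were lower and 4 were higher, with 5 lower and 1 higher at an unadjusted p under 0.05, none after adjustment, and a median of -0.11. That median was -0.19 with a pseudocount of 0.1 or with voom, and -0.05 with quantile normalization. Jag1 stood at 0.76 ± 0.0975 FPKM with miR-181d-5p and 1.08 ± 0.206 FPKM with the control virus (log2 change -0.23, adjusted p = 0.254, limma). Hes1 stood at 7.66 ± 1.27 FPKM with miR-181d-5p and 11.3 ± 3.48 FPKM with the control virus (log2 change -0.48, adjusted p = 0.257, limma). Other Hes and Hey genes that were tested did not share this change. Hes6 (log2 change 0.22, adjusted p = 0.316, limma) and Hey1 (log2 change 0.06) were higher, and Heyl was at -0.08. The receptor Notch2 stood at 4.98 ± 0.504 FPKM with miR-181d-5p and 6.12 ± 1.93 FPKM with the control virus, with an adjusted p of 0.513 by limma.

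Signals that shape the ductular niche were lower in 19 of 21 genes tested and higher in 2, with 7 lower and 0 higher at an unadjusted p under 0.05, none after adjustment, and a median of -0.22. Hgf, a growth factor of mesenchymal cells for epithelium, stood at 6.88 ± 0.763 FPKM with miR-181d-5p and 11.2 ± 1.68 FPKM with the control virus, with no overlap (log2 change -0.63, adjusted p = 0.149, limma). Ccn2 (CTGF), a matricellular protein of scarring, stood at 21.3 ± 4.79 FPKM with miR-181d-5p and 48.8 ± 17.7 FPKM with the control virus, also with no overlap (log2 change -1.12, adjusted p = 0.167, limma).

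Markers of other liver cells were counted in the same way. Of all 12053 genes tested, 54.5% were lower, and 9.63% were lower at an unadjusted p under 0.05. At that p, 607 of all tested genes were higher. Of 19 stellate cell and fibroblast markers tested, 18 were lower, 11 of them at an unadjusted p under 0.05, with a median of -0.32. Their summed level ran from 531 to 681 FPKM in miR-181d-5p livers and from 686 to 957 FPKM in control livers. Of 20 macrophage markers, 17 were lower and 3 were higher, 6 lower and 1 higher at an unadjusted p under 0.05. Their median was -0.26, or -0.17 without miR-181d-5p liver 4, with sums of 2520 to 4000 FPKM in miR-181d-5p livers and 3180 to 4480 FPKM in control livers. Hepatocyte markers ran the other way, with 15 of 19 higher, 3 of them at an unadjusted p under 0.05, a median of 0.08 (0.04 to 0.13 over the alternatives) and sums of 44200 to 49100 FPKM in miR-181d-5p livers and 41900 to 49900 FPKM in control livers. Endothelial markers were lower in 11 of 16 with a median of -0.09, 4 lower and 0 higher at an unadjusted p under 0.05. Mesothelial markers, some of whose cells also hold simple keratins, were lower in 4 of 5 tested of 10, 2 lower and 0 higher at that p. Their sums ran from 6.55 to 9.0 FPKM in miR-181d-5p livers and from 8.46 to 13.6 FPKM in control livers. Lymphocyte markers were lower in 7 of 10 tested, 2 lower and 0 higher at that p. Neutrophil and erythroid markers were lower in 8 of 11, 1 lower and 0 higher at that p. None of these lists held a gene at 0 in all livers, and none had a gene past the adjusted threshold. Over the 10 livers, the mean z score of the 9 genes had a Pearson correlation of 0.92 with that of the macrophage markers, 0.90 with the stellate markers and -0.86 with the hepatocyte markers. Within groups these were 0.89, 0.84 and -0.72, and the part of those cells in the values of the 9 genes was not tested. They are the 2 highest and the lowest of 15 lists. The other cholangiocyte and ductular genes were at 0.88 and the Notch pathway at 0.87. Endothelial markers were at 0.49 and the simple epithelial keratins at 0.07.

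**Figure D5:**
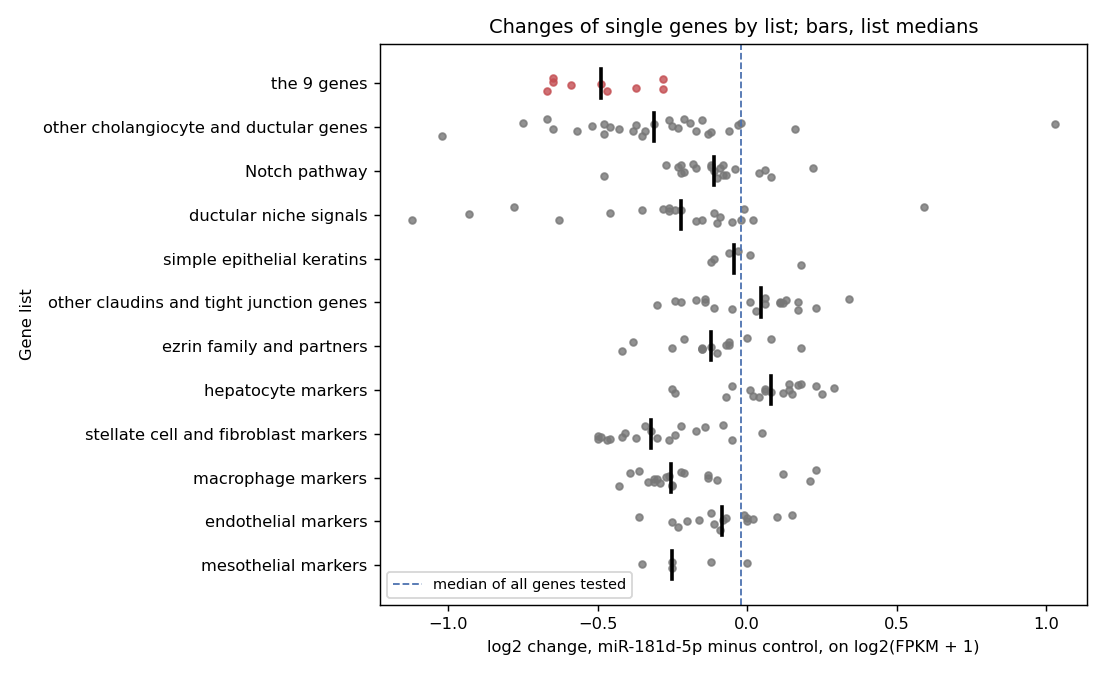
The log2 change of single genes by list, miR-181d-5p minus control on the log2(FPKM + 1) scale, with lists in rows; points are genes and bars are list medians. The 9 genes have a median of -0.49, the other cholangiocyte genes -0.31, the stellate markers -0.32 and the hepatocyte markers 0.08.

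Genes whose level over the 10 livers was most like the mean of the 9 genes, taken as z scores, were ranked among 10813 genes that averaged 1 FPKM or more, leaving out the 9 genes, predicted genes, RIKEN clones and pseudogenes. Rab31, a small GTPase of vesicle traffic, was first at 0.985, followed by Tspan8, an epithelial tetraspanin, at 0.978 and Sash3, an adaptor of lymphocytes, at 0.972. Sparcl1, Spsb1, Far1, Prr15l and Fstl1 followed, at 0.964 to 0.97. As deviations from the group means, Rab31 was again first at 0.978, Sash3 at 0.967 and Tspan8 at 0.965. Tspan8 is in the list of other cholangiocyte genes, and stood at 7.3 ± 2.98 FPKM with miR-181d-5p and 12.0 ± 4.24 FPKM with the control virus. These are the highest of many correlations over 10 livers.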

How the data were processed

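The data are RNA-seq of whole liver. The authors deposited 1 table of FPKM values, with 17274 genes by symbol, in which each column name gives the group and number of 1 liver. Per the labels' protocols, total RNA was made into libraries with a stranded mRNA kit. Per the submitters' processing notes, the tools include HISAT2 2.2.1, HTSeq 0.13.5, DESeq2 1.18.1, Trimmomatic 0.38 and FastQC 0.11.9, with the mm10 build, and their roles are not listed. The sources used here do not state strand-aware counting, so reads of overlapping antisense genes may be mixed.

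Whole reads were recovered from the FPKM values for 17273 of 17274 genes (99.994%, tolerance 0.02 of a read), and used for the depth and for limma voom. Livers of a group differed by more than counting noise, with a chi-square over degrees of freedom of 9.53 or more for each pair. The test was limma 3.58.1 in R 4.3.3 on log2(FPKM + 1), for the 12053 genes that averaged 0.5 FPKM or more over the 10 livers, with group as the only term, two-sided, with Benjamini-Hochberg adjustment over all genes at 0.05. The smallest p the exact permutation test allows with 5 against 5 livers is 0.007937. Python 3.11.15, pandas 2.3.3, scipy 1.17.1 and matplotlib 3.10.9 did the rest.

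The 9 genes, the 15 gene lists and the rule for named genes were chosen with earlier results of these data known. Named are the 9 genes, up to 4 genes of each described list with the smallest p, the nearest relatives of the 9, and the 8 genes most like them over livers. Cftr, Hey1, Heyl, Mmp7 and Dmbt1 were named outside this rule. The values of 1 gene under this rule are not reported here. UTRs and gene positions come from GENCODE vM21 on mm10. The alternatives changed the pseudocount, the filter, the scaling or the fit (robust, weighted by array, voom, or with a replicate block), or left out 1 liver.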

Additional observations from a re-analysis of the deposited data

How the results depend on the processing

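All 9 genes were lower with miR-181d-5p in the main analysis and in all 189 alternative values, and none passed an adjusted p of 0.05 there: log2 changes ran from -0.93 to -0.15 and adjusted p from 0.111 to 0.821. The filters, the robust fit, the replicate block and the exact permutation test left the log2 changes unaltered by design, so only their p could differ. Fits without 1 liver shared the remaining livers, so the 189 values are not independent checks of direction. The number of the 9 at an unadjusted p under 0.05 was 8 in the main analysis and 4 without miR-181d-5p liver 4 or without control liver 4. It was 5 without miR-181d-5p liver 2, miR-181d-5p liver 5 or control liver 2, with no filter or with the replicate block, and 9 without miR-181d-5p liver 3. By the exact permutation test it was 2, against 1574 of all 12053 genes tested. Over all genes, leaving out 1 liver gave 0 to 3 genes past the adjusted threshold, none of the 9 among them (3 without control liver 1, and 1 each without control liver 5 and miR-181d-5p liver 3), and 1071 to 2587 at an unadjusted p under 0.05, against 1768. Without miR-181d-5p liver 4 that count was 1071, and the cause was not tested. With the replicate block 1 gene passed, Ccn2 (adjusted p = 0.0137, limma), and 1220 genes had an unadjusted p under 0.05. The labels do not say whether livers of the same number belong together. Deviations of same-numbered livers had correlations of -0.28 to 0.01, and 0 of 5 livers correlated best with their own number. These few values cannot settle whether the numbers pair the livers, and a shared batch was not tested. Scaling moved the balance of directions at an unadjusted p under 0.05, with 607 higher and 1161 lower in the main analysis, 347 and 1266 with a common FPKM sum, and 997 and 942 with quantile normalization. The median of all genes moved between -0.04 and 0.01. The log2 change of Prom1 was -0.28 with a pseudocount of 1 and -0.47 with one of 0.1, and that of Sox9 was -0.67 and -0.9. A pseudocount of 1 draws low genes toward 0 more than abundant ones, which bears on comparisons between genes and lists. With one of 0.1, the list median was -0.35 for the other cholangiocyte and ductular genes, -0.34 for stellate markers and 0.08 for hepatocyte markers.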

Other observations

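Proliferation genes were lower in 11 of 15 tested, against 54.5% of all tested genes. At an unadjusted p under 0.05, 3 of the 15 were lower, against 9.63% of all tested genes. The median log2 change of the list was -0.14. That median was -0.07 without control liver 2, and -0.08 without control liver 5 or with quantile normalization. Top2a, a topoisomerase of dividing cells, stood at 3.6 ± 0.226 FPKM with miR-181d-5p and 4.93 ± 0.645 FPKM with the control virus, with no overlap of the groups (log2 change -0.36, SE 0.08, adjusted p = 0.221, limma). Mki67, a marker of cycling cells, stood at 2.08 ± 0.291 FPKM with miR-181d-5p and 2.81 ± 0.564 FPKM with the control virus (log2 change -0.30, adjusted p = 0.266, limma). Over the 10 livers, the mean z score of this list had a Pearson correlation of 0.57 with that of the 9 cholangiocyte and ductular genes, and 0.27 within groups.

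A pair of the other cholangiocyte genes had the widest changes in either direction and were named after their values were seen. Mmp7, a matrix protease of injured ducts, stood at 7.6 ± 4.48 FPKM with miR-181d-5p and 18.3 ± 13.5 FPKM with the control virus (log2 change -1.02, SE 0.48, adjusted p = 0.346, limma). Dmbt1, a mucin-like secreted protein, stood at 4.14 ± 3.91 FPKM with miR-181d-5p and 1.44 ± 2.71 FPKM with the control virus (log2 change 1.03, SE 0.71, adjusted p = 0.501, limma). In both genes the SD within a group was large next to the difference between the means, and the groups overlapped.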
